A study of Homo sapiens with 9 samples.

Results

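The amino acid enzyme genes examined here were ASNS, PYCR1, ALDH18A1, GPT2, GOT1, GOT2, GLUD1 and GLUL, which make or interconvert asparagine, proline, alanine, aspartate, glutamate and glutamine. They are 8 of the 19930 genes in the deposited table, 17089 of them known genes. The 8 genes were chosen by the roles of their enzymes and selected on FPKM differences between siRNA and control libraries that were already known from these data. For that reason their differences from the control group are given as a description, with no test. FPKM are fragment numbers divided by the length of the transcript and by the mapped fragments of the library.

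The libraries are labelled as MDA-MB-453, an established human breast cancer cell line. The cells were transfected by Lipofectamine with si-NC (the control siRNA), si-LINC00673-1 or si-LINC00673-2, both siRNAs against the long noncoding RNA LINC00673. They were harvested after 48 h, and RNA was sequenced on a BGI500 platform. Each of the 3 groups had 3 libraries from this single line, and the labels do not say whether these were separate cultures, so a p-value measures the spread between these libraries only. The libraries carried an estimated 24.0 to 27.9 M fragments, and within a group the correlation of log2(FPKM + 1) between libraries was 0.994 to 0.996 across genes, which are not independent replicates. The marker check went partly against the label. MDA-MB-453 is known as a luminal line, but FOXA1, a transcription factor of luminal cells, lay between 0 and 0.04 FPKM in the 9 libraries. The epithelial markers KRT8 (3011 to 3773 FPKM) and EPCAM (287 to 329.6 FPKM) were high, ERBB2 lay between 11.8 and 17.8 FPKM, and ESR1 did not exceed 0.02 FPKM. Of 11 markers listed as present in this line, 9 were in the table and 7 had a median of at least 1 FPKM, while FOXA1 and SPDEF (0.57 to 1.24 FPKM) did not. The summed FPKM of the listed markers in the table were 7324 to 7957 in the control group. They were 6212 to 6848 in the si-LINC00673-1 group and 6339 to 6991 in the si-LINC00673-2 group. Of 9 markers of other cells, CD68 (32.8 to 59.3 FPKM) and COL1A1 (3.49 to 7.08 FPKM) had a median of at least 1 FPKM. The summed FPKM of these 9 genes, most of it from CD68 alone, were 37.7 to 39.1 in the control group, 52.8 to 56.4 in the si-LINC00673-1 group and 61.7 to 67.3 in the si-LINC00673-2 group, while PTPRC (at most 0.07), PECAM1 (at most 0.12) and DCN (at most 0.04) were near 0. Whether this has a part in the results below was not tested.

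Asparagine, proline, alanine and aspartate are built in cells from glutamate, glutamine, pyruvate and intermediates of the citric acid cycle. Asparagine synthetase moves an amide group from glutamine to aspartate, the proline branch reduces glutamate in successive steps, and the transaminases pass the amino group of glutamate to pyruvate or oxaloacetate. Glutamate dehydrogenase and glutamine synthetase link the glutamate and glutamine pools to free ammonium. Several of these genes, ASNS foremost, are textbook targets of ATF4, a transcription factor of the response to amino acid shortage that binds C/EBP-ATF response elements in promoters.

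The promoter sequences are shown because such an element is the best known regulatory feature of ASNS. Promoters from RefSeq (GRCh38.p14), from 250 bases before to 50 after each gene start, were searched on both strands for the letters TGATGNAA. All 8 genes had a promoter in that set. The letters were found in 1270 of 35116 promoters (3.62%) and in those of ASNS and GOT1 among the 8 genes. The match of ASNS starts 68 bases before the gene start, within chr7:97872449-97872496 on the reverse strand of GRCh38.p14. The match of GOT1 starts 198 bases before the gene start, within chr10:99430795-99430842 on the reverse strand, and reads in the opposite orientation. In both windows, written 5′ to 3′ along the gene, capitals mark the match.
ASNS: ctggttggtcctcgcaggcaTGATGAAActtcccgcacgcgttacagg
GOT1: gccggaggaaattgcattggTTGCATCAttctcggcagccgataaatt
The cyclic AMP response element TGACGTCA was found in 649 promoters (1.85%) and in 0 of the 8 genes. A match describes the letters of a window and was not tested as a binding site.

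The siRNA guides are shown because bases 2 to 8 of a guide, its seed, can also pair with other transcripts. The strands listed as antisense by the study are given 5′ to 3′, with the seed in capitals.
si-LINC00673-1: aGAAACCUcugauuccacctt
si-LINC00673-2: uUAUUAUUugagacagggucu
si-NC: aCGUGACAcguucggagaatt
In the longest GENCODE v29 transcript of each of 11380 genes, a full match to the seed was found in 22.8% of genes for si-LINC00673-1, 27.5% for si-LINC00673-2 and 7.33% for si-NC. Of the 8 genes, GPT2 held a match for si-LINC00673-1, GLUD1 and GLUL held a match for si-LINC00673-2, and 0 held one for si-NC.

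With both siRNAs, 5 of the 8 genes had lower mean FPKM than with si-NC (ASNS, PYCR1, GPT2, GOT1 and GLUL) and 3 had higher ones (ALDH18A1, GOT2 and GLUD1). In bulk RNA, fewer cells of a kind and less RNA per cell cannot be told apart. The filter on low values, a minimum of 1 FPKM for the mean of the 9 libraries, was passed by 12884 genes, the 8 genes included. The criteria of the study are a fold change of at least 1.3 (0.38 on the log2 scale) and a P of at most 0.05, which was taken here as unadjusted. By these criteria, with P from limma, 4 of the 8 genes were lower and 0 higher with si-LINC00673-1, where 15.6% of all genes tested were lower and 11.1% higher. With si-LINC00673-2, 5 were lower and 1 was higher, where 23.1% of all genes tested were lower and 11.0% higher. The 3 siRNA libraries lay on the same side of the 3 si-NC libraries for all 8 genes with each siRNA, as they did in 70.0% of all genes tested with si-LINC00673-1 and 73.0% with si-LINC00673-2. Because the genes were selected on these contrasts, nothing is read from these counts. The median log2 fold change of the 8 genes was -0.45 and -0.58, and that of all genes tested was 0.0032 and -0.095. Both comparisons use the same si-NC libraries. Changes are on the scale of log2(FPKM + 1), where scaling the libraries by the median ratio of expressed genes moved the median of all genes with si-LINC00673-2 from -0.095 to -0.0041. The share of lower genes among those past the criteria with si-LINC00673-2 was 67.8%, 53.2% after this scaling and 48.7% after a correction for GC content. With si-LINC00673-1 it was 58.3%, 58.4% and 50.1%.

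**Figure D1:**
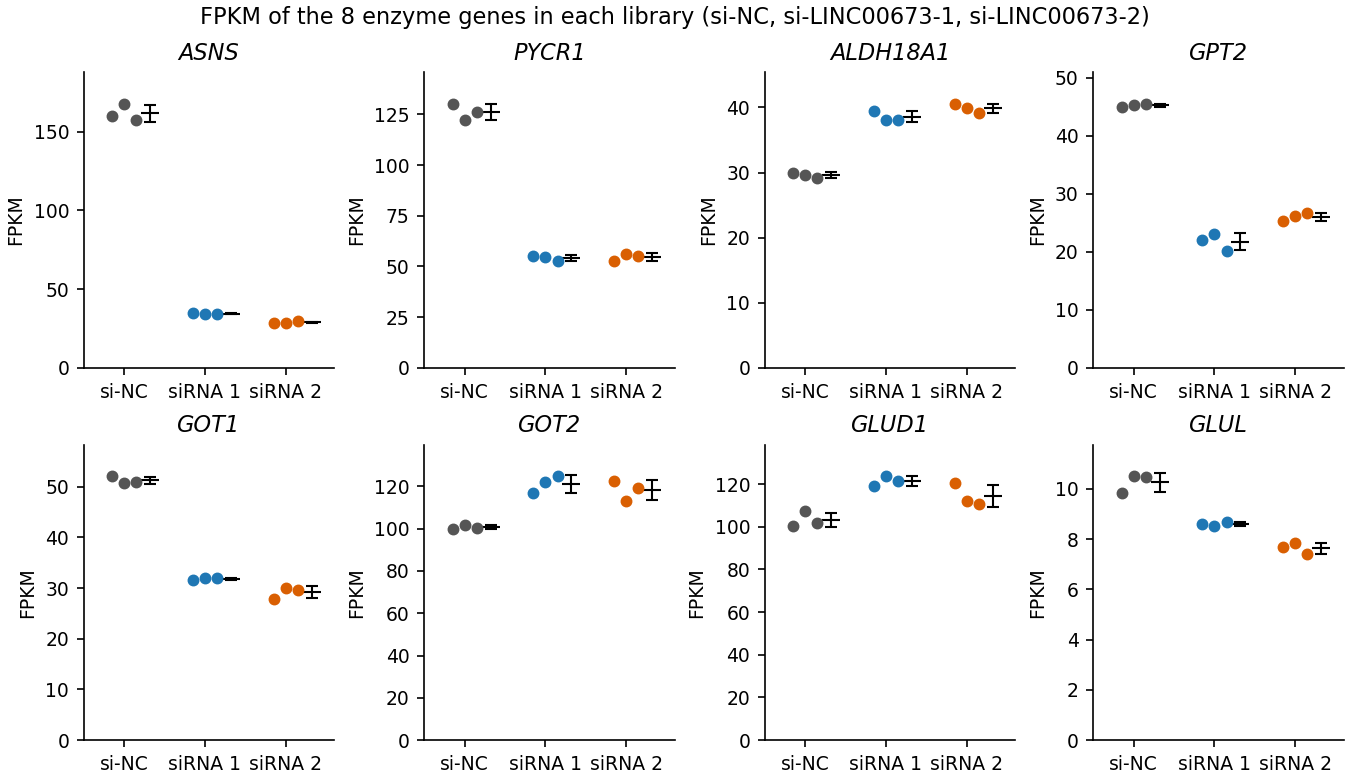
FPKM (vertical axis, starting at 0) of each of the 8 genes in the 9 libraries, with 1 point per library, grouped by siRNA, and a black bar for the group mean with its SD. ASNS stands at 157 to 168 FPKM with si-NC and at 28.5 to 34.6 FPKM in the 6 siRNA libraries, and in no panel do the siRNA libraries overlap those of si-NC.

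ASNS, asparagine synthetase, makes asparagine from aspartate with glutamine as the nitrogen donor. The gene (Gene ID 440) lies on the reverse strand at chr7:97481429-97601646 of GRCh37.p13, the build of the deposited coordinates. The si-NC libraries had 159.9, 168 and 157 FPKM, those of si-LINC00673-1 had 34.6, 34.1 and 34.5, and those of si-LINC00673-2 had 28.65, 28.5 and 29.55. All 6 siRNA libraries were far below the control libraries, and the 3 libraries of si-LINC00673-2 were also below the 3 of si-LINC00673-1. The means were 162 ± 5.40, 34.4 ± 0.272 and 28.9 ± 0.564 FPKM (SD, n = 3 each), so ASNS was 4.70-fold and 5.59-fold higher with si-NC than with si-LINC00673-1 and si-LINC00673-2. On the log2 scale the difference was -2.20 and -2.44 (SE 0.031), the rank 12 and 10 from the lowest of the 12884 genes. ASNS had the highest FPKM of the 8 genes with si-NC, at rank 358 of the whole table, and stood at rank 2107 and 2469 with the siRNAs. Of the 100-base windows of its longest GENCODE v29 transcript, 79.4% are also found in AC079781.5, another GENCODE v29 entry. No row for AC079781.5 was found in the deposited table, so how fragments were shared between these entries is uncertain. By the length of its longest transcript in the deposited table, the estimated fragments behind an ASNS value ranged from 2084 to 13114.

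In the proline branch, the gene of the first enzyme was higher and that of the last enzyme lower with both siRNAs. ALDH18A1 encodes the mitochondrial pyrroline carboxylate synthase, which turns glutamate into the precursor that proline shares with ornithine (Gene ID 5832, reverse strand, chr10:97365686-97416567, GRCh37.p13). Its FPKM were 29.99, 29.7 and 29.15 with si-NC, 39.5, 38.0 and 38.1 with si-LINC00673-1, and 40.5, 39.9 and 39.2 with si-LINC00673-2. The siRNA groups lay above si-NC and overlapped each other. The log2 differences were 0.37 and 0.42 (SE 0.030), so that ALDH18A1 lay just under the limit of 0.38 with si-LINC00673-1 and just above it with si-LINC00673-2. With 0.1 FPKM added in place of 1 FPKM the first was 0.38 and met the limit, so that 1 of the 8 genes was higher with si-LINC00673-1.

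PYCR1 encodes a pyrroline carboxylate reductase, which completes the synthesis of proline in mitochondria (Gene ID 5831, reverse strand, chr17:79890260-79895204, GRCh37.p13). In the libraries of si-NC it reached 130.1, 122 and 126 FPKM, in those of si-LINC00673-1 55.0, 54.9 and 52.6, and in those of si-LINC00673-2 52.7, 56.3 and 55.2. The siRNA groups lay below si-NC and overlapped each other. The means were 126 ± 4.03, 54.2 ± 1.38 and 54.7 ± 1.84 FPKM (SD, n = 3 each), and the log2 differences -1.20 and -1.19 (SE 0.036). PYCR1 had the most GC-rich transcript of the 8 genes (61.8%), and after the correction for GC content its differences were -0.93 and -0.87.

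PYCR3, the cytosolic isozyme of PYCR1 and listed as PYCRL, was at 1.71 ± 0.0794, 0.653 ± 0.0757 and 0.533 ± 0.0473 FPKM (SD, n = 3 each) and below the filter on low values.

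Among the transaminases, the mitochondrial GPT2 and the cytosolic GOT1 were lower with both siRNAs and the mitochondrial GOT2 was higher. GPT2 encodes the mitochondrial alanine transaminase, which makes alanine and 2-oxoglutarate from pyruvate and glutamate (Gene ID 84706, forward strand, chr16:46918292-46965209, GRCh37.p13). Its FPKM were 45.0, 45.4 and 45.5 with si-NC, 22.1, 23.1 and 20.1 with si-LINC00673-1, and 25.3, 26.2 and 26.7 with si-LINC00673-2. The 3 groups did not overlap, and si-LINC00673-1 had the lowest values. The log2 differences from si-NC were -1.03 and -0.77 (SE 0.046). GPT, the cytosolic isozyme, was below the filter at 0.507 ± 0.155, 0.27 ± 0.0529 and 0.187 ± 0.0306 FPKM (SD, n = 3 each), and GPT2 made up 98.6% to 99.4% of the sum of GPT and GPT2 in every library.

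GOT1 encodes the cytosolic aspartate transaminase (Gene ID 2805, reverse strand, chr10:101156627-101190530, GRCh37.p13), which works with GOT2 in the malate-aspartate shuttle. Control libraries had 52.1, 50.7 and 51.0 FPKM, those of si-LINC00673-1 had 31.6, 32.0 and 32.0, and those of si-LINC00673-2 had 27.8, 30.1 and 29.7. The 3 groups did not overlap. The log2 differences from si-NC were -0.67 and -0.79 (SE 0.034).

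GOT2 encodes the mitochondrial aspartate transaminase (Gene ID 2806, reverse strand, chr16:58741035-58768261, GRCh37.p13). Its FPKM were 99.9, 102 and 100.4 with si-NC, 117, 122 and 125 with si-LINC00673-1, and 123, 113 and 119 with si-LINC00673-2. The siRNA groups lay above si-NC and overlapped each other. The log2 differences were 0.27 and 0.23 (SE 0.036), under the fold limit. Of the FPKM of both transaminases, GOT1 made up 33.7% ± 0.509 in the si-NC group, 20.8% ± 0.472 in the si-LINC00673-1 group and 19.8% ± 1.28 in the si-LINC00673-2 group (SD, n = 3 each). Their sum was 152 ± 0.493, 153 ± 4.34 and 147 ± 3.89 FPKM (SD, n = 3 each). The share of GOT1 was lower in every siRNA library than in every si-NC library, while the sums, 151 to 152 FPKM in the control libraries, were 148 to 157 FPKM after si-LINC00673-1 and 143 to 150.3 FPKM after si-LINC00673-2. The latter lay slightly below the control libraries as deposited, but above them after median-ratio scaling (149.4 to 158.2 against 146.9 to 149.1 FPKM).

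**Figure D2:**
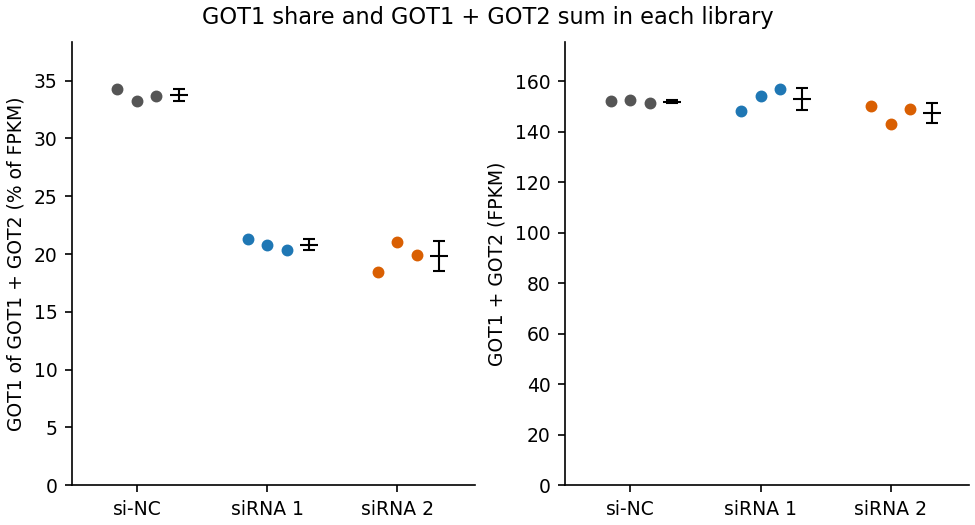
Share of GOT1 in the FPKM of GOT1 and GOT2 (left, percent) and summed FPKM of GOT1 and GOT2 (right), with 1 point per library, grouped by siRNA, and a black bar for the group mean with its SD. The share is lower in all 6 siRNA libraries than with si-NC, while the summed FPKM lie between 143 and 157 in the 9 libraries.

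GLUD1 and GLUL act at the glutamate and glutamine pools. GLUD1 encodes the mitochondrial glutamate dehydrogenase, which interconverts glutamate and 2-oxoglutarate with free ammonium (Gene ID 2746, reverse strand, chr10:88809959-88854804, GRCh37.p13). The 3 control libraries had 100.6, 107 and 102 FPKM, those of si-LINC00673-1 had 119, 124 and 121, and those of si-LINC00673-2 had 120.3, 112 and 111. The siRNA groups lay above si-NC and overlapped each other. The log2 differences were 0.23 and 0.15 (SE 0.038), under the fold limit, and the second became 0.25 after median-ratio scaling. Of the 100-base windows of its longest GENCODE v29 transcript, 13.6% are also found in GLUD2, the near-identical copy. GLUD2 did not exceed 0.05 FPKM in any library.

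GLUL encodes glutamine synthetase, which adds ammonium to glutamate (Gene ID 2752, reverse strand, chr1:182347228-182361341, GRCh37.p13). It had the lowest FPKM of the 8 genes, at 9.82, 10.5 and 10.5 with si-NC, at 8.58, 8.53 and 8.67 with si-LINC00673-1 and at 7.67, 7.84 and 7.40 with si-LINC00673-2. The 3 groups did not overlap, in the order si-NC, si-LINC00673-1 and si-LINC00673-2 from the highest. The log2 differences from si-NC were -0.23 and -0.38 (SE 0.040), and the second became -0.29 after median-ratio scaling and -0.34 after the GC correction, both under the fold limit. GLS2, a glutaminase, runs the opposite reaction. It was at 16.6 ± 0.282, 12.98 ± 0.562 and 13.1 ± 0.127 FPKM (SD, n = 3 each), log2 differences of -0.34 and -0.32 that did not reach the fold limit.

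**Figure D3:**
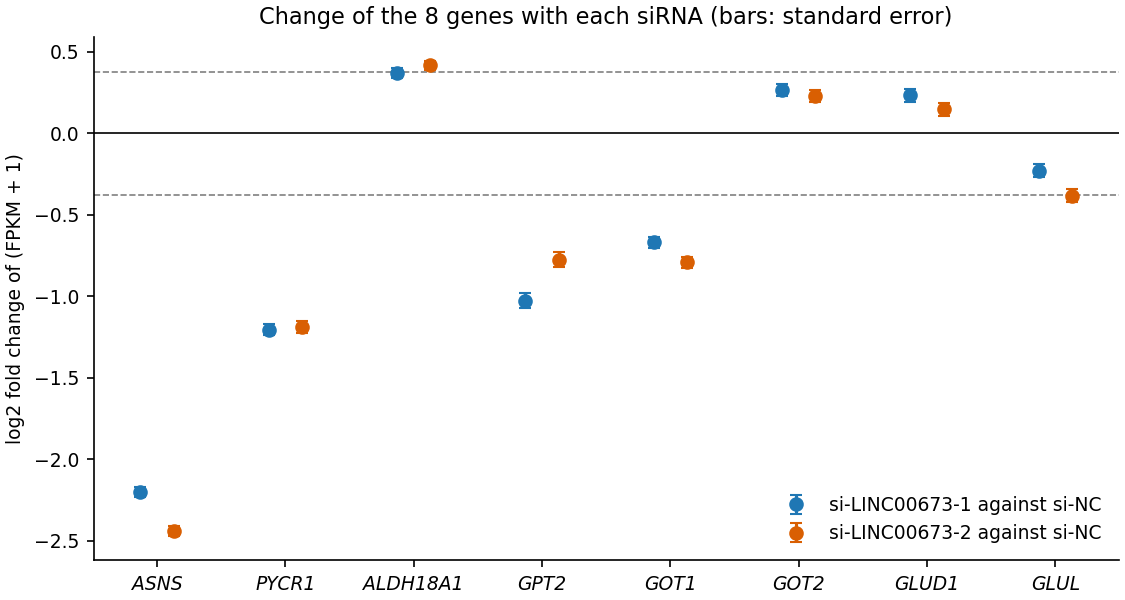
Log2 fold change of FPKM + 1 against si-NC (vertical axis) for the 8 genes with si-LINC00673-1 (blue) and si-LINC00673-2 (orange), with bars for the standard error and dashed lines at the fold limit of 1.3. ASNS, PYCR1, GPT2 and GOT1 lie below the lower line with both siRNAs, from -2.44 to -0.67, while ALDH18A1, GOT2 and GLUD1 lie above 0.

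The order of the FPKM, which are per transcript length, differed between the groups. With si-NC it ran from ASNS through PYCR1, GLUD1, GOT2, GOT1, GPT2 and ALDH18A1 to GLUL, and among neighbours the libraries of GLUD1 and GOT2 alone overlapped. With si-LINC00673-1, GLUD1 and GOT2 came first and overlapped, followed by PYCR1, ALDH18A1, ASNS, GOT1, GPT2 and GLUL. With si-LINC00673-2, GOT2 and GLUD1 overlapped at the top, PYCR1 and ALDH18A1 followed, GOT1 and ASNS overlapped, and GPT2 and GLUL came last. ASNS thus stood first with si-NC, and in the siRNA groups lay below ALDH18A1.

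The difference between the siRNAs was tested in the same limma fit, with P adjusted over all 12884 genes. It equals the difference of the contrasts against si-NC on which the genes were selected. The P values are therefore not independent of that choice. The difference between the siRNAs had an adjusted P of at most 0.05 in 4 of the 8 genes, where 44.0% of all genes tested had one, so the share among the 8 genes was near that of all genes. ASNS was lower with si-LINC00673-2 than with si-LINC00673-1 by a log2 difference of -0.24 (95% interval -0.31 to -0.17, limma adjusted P = 0.00034). GPT2 was higher with si-LINC00673-2, by 0.25 (0.15 to 0.35, limma adjusted P = 0.0021). GOT1 was lower with si-LINC00673-2 by -0.12 (-0.20 to -0.046, limma adjusted P = 0.017), and GLUL by -0.15 (-0.24 to -0.063, limma adjusted P = 0.012). For each of these genes the 3 libraries of the siRNAs did not overlap. An exact permutation test of 3 libraries against 3 could not go below P = 0.1.

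The differences of ASNS and GPT2 kept their direction and an adjusted P of at most 0.05 after median-ratio scaling (-0.14, limma adjusted P = 0.0057, and 0.35, limma adjusted P = 0.00048) and after the GC correction (-0.14, limma adjusted P = 0.0014, and 0.32, limma adjusted P = 5.1e-05). Those of GOT1 and GLUL did not pass after scaling (-0.019, limma adjusted P = 0.70, and -0.056, limma adjusted P = 0.26) or after the GC correction (-0.045, limma adjusted P = 0.21, and -0.044, limma adjusted P = 0.33). Without replicate 2 of si-LINC00673-1, the adjusted P of GOT1 was 0.0502. For ALDH18A1 the difference of 0.048 (-0.019 to 0.11, limma adjusted P = 0.22) became 0.15 after scaling (limma adjusted P = 0.0044) and 0.14 after the GC correction (limma adjusted P = 0.0024). For PYCR1 it was 0.014 (-0.067 to 0.095, limma adjusted P = 0.77) and became 0.12 after scaling (limma adjusted P = 0.035) and 0.059 after the GC correction (limma adjusted P = 0.079). GOT2 gave -0.036 (-0.12 to 0.046, limma adjusted P = 0.45), and GLUD1 gave -0.087 (-0.17 to -0.00098, limma adjusted P = 0.093), which became -0.12 without replicate 1 of si-LINC00673-2 (limma adjusted P = 0.018). GPT2, which holds a seed match for si-LINC00673-1, had its lowest FPKM with that siRNA. GLUD1 and GLUL, with a seed match for si-LINC00673-2, had lower mean FPKM with that siRNA than with si-LINC00673-1 as deposited, but the difference of GLUD1 turned to 0.020 after scaling and 0.014 after the GC correction, and that of GLUL did not pass after either. ASNS, GOT1 and GOT2, which hold no match for si-LINC00673-2, also had lower mean FPKM with it than with si-LINC00673-1. PYCR1, ALDH18A1 and GPT2, also without such a match, had higher mean FPKM with it. GLUD1 had higher mean FPKM with both siRNAs than with si-NC. The part of the seeds in these values was not tested.

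**Figure D4:**
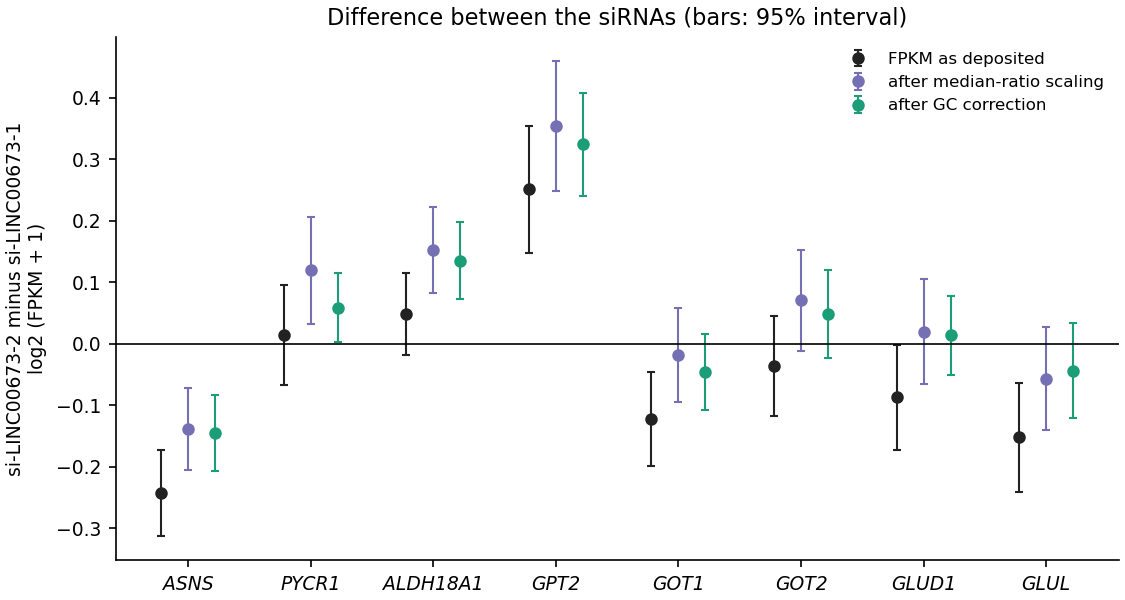
Log2 difference of FPKM + 1 between si-LINC00673-2 and si-LINC00673-1 (vertical axis) for the 8 genes, with 95% intervals, from the FPKM as deposited (black), after median-ratio scaling (purple) and after the correction for GC content (green). The intervals of ASNS stay below 0 and those of GPT2 above 0 in all 3, while those of GOT1 and GLUL reach 0 after scaling and after the GC correction.

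The other enzymes and carriers of the same pools were given by a list of 47 genes, of which 45 were in the table and 35 passed the filter. The list was made with earlier results of these data known, so the P values of its genes do not come from a blind choice. ASPA and GOT1L1 were not analysed here. With si-LINC00673-1, 1 of the 35 genes rose, 6 fell and 28 did not pass the criteria, and with si-LINC00673-2, 1 rose, 9 fell and 25 did not pass. Their median log2 fold change was -0.071 and -0.21, compared with 0.0032 and -0.095 for all genes tested, and both shares of falls stood near those of all genes given above (15.6% and 23.1%). The 1 rise among the 35 genes with each siRNA stands beside 11.1% and 11.0% of all genes tested. With both siRNAs, 6 genes fell and 1 rose, and 0 moved in opposite directions. The share of all genes that passed with both is not given here, so nothing is read from these counts. The split of rises and falls depended on the processing. After median-ratio scaling, 1 rose and 6 fell with si-LINC00673-1 and 2 rose and 6 fell with si-LINC00673-2. Of all 12884 genes tested, 1422 were then higher and 1994 lower with si-LINC00673-1, and 1975 and 2246 with si-LINC00673-2. After the GC correction, 3 rose (PRODH, SLC25A22 and CAD) and 6 fell with si-LINC00673-1, and 2 rose (PRODH and SLC25A22) and 7 fell with si-LINC00673-2. Of the 11380 genes with this correction, 1271 were higher and 1274 lower with si-LINC00673-1, and 1743 and 1655 with si-LINC00673-2.

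On the scale of log2(FPKM + 1), ASS1 and PSAT1 had the largest falls of the 35 genes. ASS1, argininosuccinate synthase, joins aspartate to citrulline. Its mean was 127 ± 3.10 FPKM in the si-NC group, 39.7 ± 0.795 in the si-LINC00673-1 group and 34.99 ± 1.29 in the si-LINC00673-2 group (SD, n = 3 each), log2 fold changes of -1.65 and -1.83 (SE 0.035, limma adjusted P = 2.9e-09 and 3.7e-10). PSAT1, phosphoserine transaminase, which takes its amino group from glutamate, fell from 105 ± 1.07 FPKM to 37.2 ± 2.61 and 26.6 ± 2.18 (SD, n = 3 each), or -1.47 and -1.94 as log2 fold changes (SE 0.061, limma adjusted P = 6.8e-08 and 6.0e-09). OAT, ornithine aminotransferase, which links ornithine to the proline precursor, fell with both siRNAs (-0.70 and -0.82, limma adjusted P = 4.5e-07 and 9.2e-08). GFPT1, which uses glutamine for hexosamine synthesis, fell as well (-0.64 and -0.62, limma adjusted P = 6.5e-07 and 4.4e-07). For ASS1, PSAT1, OAT and GFPT1, scaling and the GC correction kept the falls past the fold limit with both siRNAs.

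In proline breakdown, PRODH rose and PRODH2 fell. PRODH, proline dehydrogenase, was at 7.91 ± 0.614, 12.1 ± 0.629 and 12.3 ± 2.003 FPKM in the 3 groups (SD, n = 3 each), log2 fold changes of 0.55 and 0.57 (SE 0.10, limma adjusted P = 0.00081 and 0.00055). PRODH2, which acts on hydroxyproline, was at 3.35 ± 0.474, 0.833 ± 0.284 and 0.647 ± 0.166 FPKM (SD, n = 3 each), log2 fold changes of -1.25 and -1.40 (SE 0.12). It passed the filter of 1 FPKM only through the si-NC group, as the means of both siRNA groups lay under that limit. Its P values are therefore not given. By the ratio of mean FPKM, PRODH2 was 4.02-fold and 5.19-fold higher with si-NC, more than ASS1 (3.20-fold and 3.64-fold) and PSAT1 (2.82-fold and 3.95-fold). These ratios of PRODH2 rest on low siRNA values. With 0.1 FPKM added its log2 fold changes were -1.92 and -2.22, and after the GC correction they were -0.86 and -0.98. ASRGL1, an asparaginase, fell with both siRNAs (-0.41 each, limma adjusted P = 0.0025 and 0.0020), though scaling left -0.33 with si-LINC00673-2, under the fold limit. With si-LINC00673-2, ASNSD1, ALDH4A1 and ALDH5A1 also passed, at -0.46, -0.44 and -0.60 on the log2 scale (limma adjusted P = 4.2e-05, 0.00058 and 1.7e-05). The changes of ASNSD1 and ALDH4A1 were -0.36 and -0.35 after scaling, under the fold limit, and that of ALDH4A1 was -0.17 after the GC correction. Of the 6 tested genes of the malate-aspartate shuttle and the mitochondrial glutamate carriers, 0 passed the criteria with either siRNA. After the GC correction SLC25A22, a mitochondrial glutamate carrier, passed with both (0.61 and 0.50, compared with 0.24 and 0.10 uncorrected). MDH2, the mitochondrial malate dehydrogenase, had log2 differences of 0.25 and 0.28, under the fold limit (limma adjusted P = 4.3e-05 and 1.5e-05), and the second became 0.38 after scaling, past it.

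**Figure D5:**
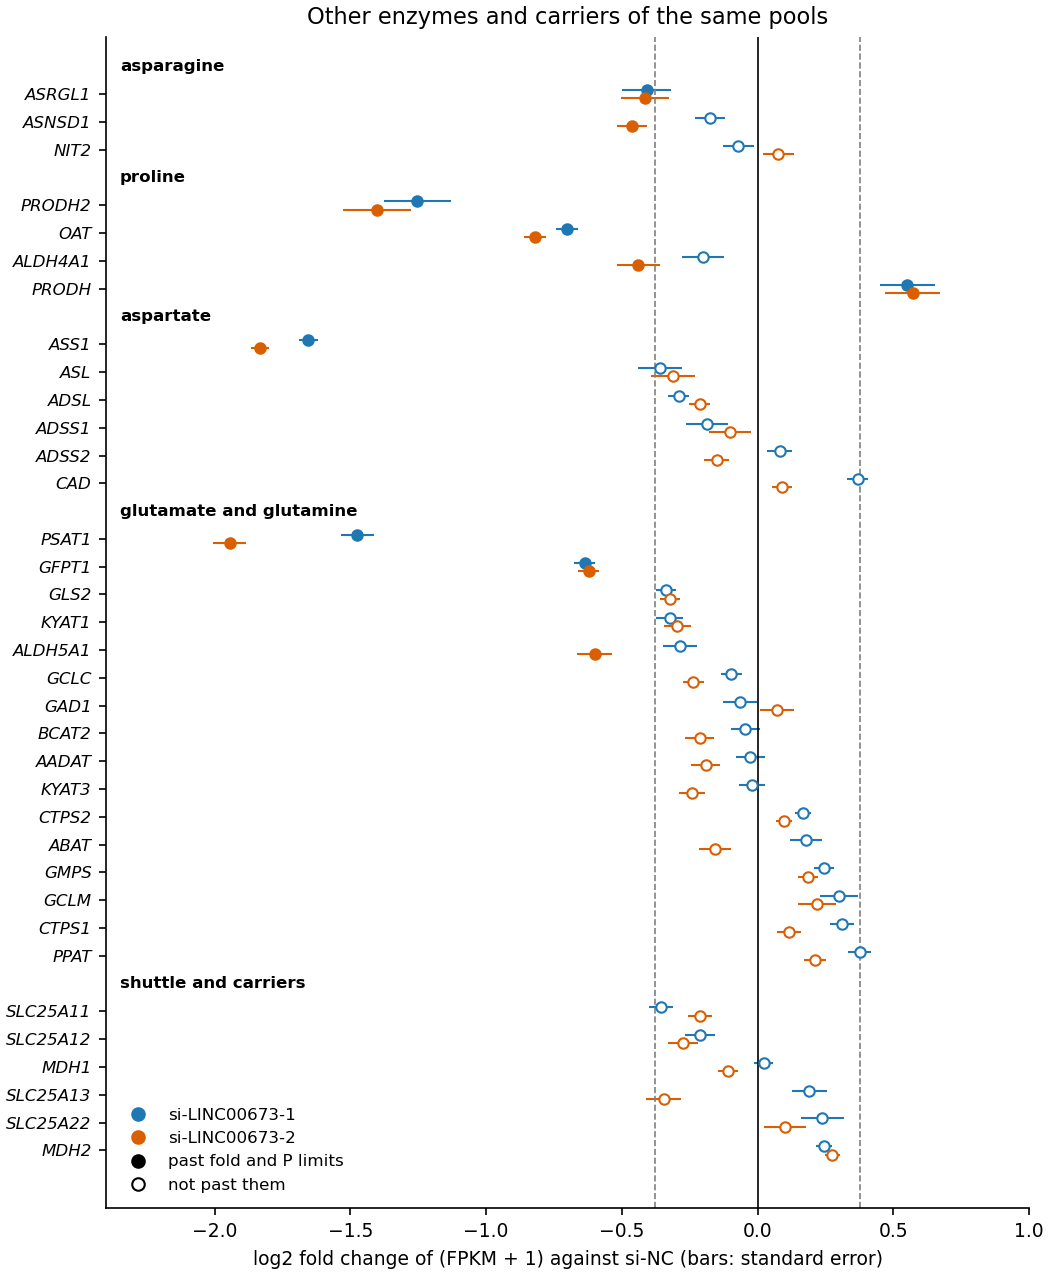
Log2 fold change of FPKM + 1 against si-NC (horizontal axis) for the 35 tested genes of the same pools, grouped by pool, with si-LINC00673-1 in blue and si-LINC00673-2 in orange, bars for the standard error and dashed lines at the fold limit of 1.3. Filled points passed the criteria; ASS1, PSAT1 and PRODH2 lie farthest to the left and PRODH farthest to the right.

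Regulators tied to these genes moved in different directions. They too were chosen with earlier results of these data known, which limits their P values in the same way. ATF4 was at 358 ± 8.07, 278 ± 5.12 and 296 ± 2.14 FPKM (SD, n = 3 each), log2 differences of -0.36 and -0.27 that did not reach the fold limit (limma adjusted P = 1.7e-06 and 7.9e-06), the second of which became -0.17 after scaling and -0.11 after the GC correction. TRIB3, a pseudokinase gene, fell from 102 ± 3.80 FPKM to 31.4 ± 1.62 and 26.8 ± 0.333 (SD, n = 3 each), or -1.67 and -1.89 as log2 fold changes (limma adjusted P = 5.7e-09 and 6.8e-10). ATF3, a transcription factor of the stress response, rose by 0.69 and 1.35 (limma adjusted P = 6.7e-07 and 4.9e-09). DDIT3, which encodes CHOP, rose by 0.80 with si-LINC00673-2 (limma adjusted P = 5.3e-08), and its difference of 0.23 with si-LINC00673-1 was under the fold limit. The common reference genes were not level: the log2 fold changes were 0.12 and 0.43 for GAPDH and 0.57 and 0.35 for ACTB.

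The genes with the profile most like each of the 4 genes past the fold limit with both siRNAs were found by the root-mean-square difference of log2(FPKM + 1), centred on the si-NC mean, over the 9 libraries. For ASNS these were INHBE (0.145), NOXA1 (0.182) and NOTUM (0.239). For PYCR1 they were GTPBP2 (0.0512), PHGDH (0.0556) and POLL (0.0573), with PHGDH, the first enzyme of serine synthesis, at 98.2, 41.2 and 40.15 FPKM on average in the 3 groups. For GPT2 they were UPF3A (0.0713), UBXN6 (0.0732) and TMEM141 (0.0783), and for GOT1 they were UCK1 (0.0270), REPIN1 (0.0337) and LZTR1 (0.0343). The distances were larger for ASNS than for the other 3 genes.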

How the data were processed

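The authors deposited 1 table with the FPKM of 9 libraries per gene, rounded to 2 decimals. The labels list Bowtie2 version 2 and GRCh37.p13 in the submitters' processing notes; the counting tool and the use of strand are not given in the sources used here. The table's transcript lengths were used for depth. Log2 ratios between groups with P and q values, also deposited, were left unused, and 4 lines without values were left out. LINC00673 and some genes of the lists are not reported here.

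Libraries were grouped by their labels. Numbers 1 and 2 in the labels were taken as those of the siRNAs. The genes whose mean over all libraries was 1 FPKM or more were fitted on log2(FPKM + 1), with 1 FPKM added, in limma version 3.58.1 (lmFit, and eBayes with a trend; R version 4.3.3), with the group as the only factor and all 9 libraries. P values were adjusted by Benjamini-Hochberg over all 12884 genes. The step was tested on simulated data. Depth came from the spacing of low FPKM in genes of 300 to 900 bases, after 100 bases were taken off the length, and the fragment numbers it gave missed a whole number by 0.084 to 0.115 on average. The lowest estimate for a value of the 8 genes was 1408 fragments. It was computed from the longest transcript of each gene and may be too high where shorter transcripts gave the fragments. No counts were rebuilt. The GC correction covered the 11380 genes with a GENCODE v29 transcript assigned to their Gene ID.

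The 8 genes, the lists and the tests were chosen with earlier results of these data known. Named among the other genes were other isozymes of the 8, genes of the related list past the criteria in the same direction with both siRNAs, 4 regulators, 2 reference genes and the 3 nearest profiles of each gene past the fold limit with both siRNAs. ASNSD1, ALDH4A1, ALDH5A1, MDH2, CAD, SLC25A13 and SLC25A22 were named after their values were seen. The alternatives were 0.1 FPKM added, no filter or a mean of at least 5 FPKM, a fold of 1.5, an adjusted P, only the libraries compared, a replicate block, median-ratio scaling, the GC correction and each library left out in turn. Sequences, tables and figures were handled in Python 3.11.15 (numpy 2.4.6, pandas 2.3.3, matplotlib 3.10.9).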

Additional observations from a re-analysis of the deposited data

Results flagged for a closer look

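Of the 8 genes, 4 differed between the siRNAs, as log2 differences of si-LINC00673-2 minus si-LINC00673-1 tested in the same fit. They were ASNS (-0.24), GPT2 (0.25), GOT1 (-0.12) and GLUL (-0.15), and 44.0% of all genes tested differed in this sense. In the related list 18 of 35 genes differed, 17 of them lower with si-LINC00673-2. After median-ratio scaling 14 did, 7 of them lower, and after a GC correction 18 did, 11 of them lower. Of all genes, 4888 of 12884 differed after scaling and 5464 of 11380 after the GC correction. The median difference of all genes was -0.081 as deposited, 0.010 after scaling and 0.0049 after the GC correction. How all genes that differed split by direction is not given here, so nothing is read from these counts. The largest difference in the related list was that of SLC25A13, a mitochondrial aspartate-glutamate carrier (-0.54, limma adjusted P = 0.00024, and -0.44 after scaling). Of the genes past the criteria with both siRNAs, PSAT1 (-0.47, limma adjusted P = 0.00034), ASS1 (-0.18, limma adjusted P = 0.0028) and OAT (-0.12, limma adjusted P = 0.035) differed. After median-ratio scaling these were -0.37 for PSAT1 (limma adjusted P = 0.0017), -0.074 for ASS1 (limma adjusted P = 0.14) and -0.014 for OAT (limma adjusted P = 0.80). After the GC correction they were -0.35 (limma adjusted P = 0.00015), -0.11 (limma adjusted P = 0.0032) and 0.0054 (limma adjusted P = 0.89). Groups of 3 libraries were not examined for single libraries that stand apart.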

How the results depend on the processing

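The differences of the 8 genes from si-NC kept their sign under all alternatives run, where 238 values moved by less than the spread between libraries and 18 by more. The 18 all came from median-ratio scaling or the GC correction. Many of the 238 could not move and say nothing about stability. Another filter, only the libraries compared or a replicate block leaves these log2 fold changes as they are. So does leaving out a library of the group not compared. Of the differences between the siRNAs, that of GOT2 turned to 0.071 and 0.048 and that of GLUD1 to 0.020 and 0.014 under median-ratio scaling and the GC correction, and that of PYCR1 lay between -0.0067 (without replicate 3 of si-LINC00673-1) and 0.041 with each library left out, at -0.0060 without replicate 2 of si-LINC00673-2. The cause was not tested. Leaving out each library in turn gave 3 to 5 of the 8 genes that differed between the siRNAs, 3339 to 3592 genes past the criteria with si-LINC00673-1, 4296 to 4464 with si-LINC00673-2 and 939 to 1117 between the siRNAs, and 6 to 10 and 9 to 11 related genes. Of all genes tested, 44.0% differed between the siRNAs in the main fit. That share is not given here for these fits or for the replicate block, so nothing is read from the counts of the 8 genes. With a minimum mean of 5 FPKM, which leaves fewer genes to test, 2211, 2714 and 547 genes passed, compared with 3436, 4385 and 984. A fold of 1.5, a stricter limit, gave 1573, 2270 and 224, and left 5 and 6 related genes compared with 7 and 10. With the minimum of 5 FPKM, 6 related genes passed with si-LINC00673-2. Between the siRNAs, 1656 genes passed with 0.1 FPKM added and 577 after the GC correction. The replicate suffix of the labels did not pair the libraries (correlations of the deviations from the group means between -0.239 and 0.104), and with the suffix as a replicate block 3449, 4400 and 988 genes passed and 4 of the 8 genes differed between the siRNAs. Depth was estimated from FPKM alone, so no counting interval is given.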
